A study of Mus musculus with 8 samples.

Results

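The phospholipase C genes of the mouse iris were followed across cell types and conditions. The 10 members, Plcb1, Plcb2, Plcb3, Plcb4, Plcd1, Plcd3, Plce1, Plcg1, Plch1 and Plcl1, were taken by gene symbol from the 22873 genes of the count tables, and each symbol matched 1 gene. Their unique molecular identifiers (UMIs, 1 per captured transcript) were summed for each library and each of 10 cell types, with the cell type labels that the authors had given to the nuclei. A level is given as counts per 1000000 UMIs of that library and cell type (CPM), as mean ± SD over libraries.

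Nuclei came from irises, with some attached ciliary body, of young adult wild-type female albino mice. The 3 untreated libraries received no drops. The 2 dilated libraries came from eyes given hourly drops of phenylephrine, an agonist of alpha-1 adrenergic receptors, with cyclopentolate, a blocker of muscarinic receptors, in mice kept in the dark. The 3 constricted libraries came from eyes given hourly pilocarpine, a muscarinic agonist, with the mice in the light. The effects of the drugs and of the lighting cannot be told apart in these groups. In both treated groups drops were given over several hours, and eyes were taken shortly after the last dose. Each library was a pool of several irises.

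The libraries held 34357 nuclei, 1274 to 7321 each, with 5189437 to 25136427 UMIs per library and medians of 2775 to 4697.5 UMIs per nucleus. Untreated replicate 1 and dilated replicate 1 shared 63 cell barcodes, 4.26% of the smaller library, and 59 of these carried the same cell type label in both. In all, 400 nuclei had a barcode found in more than 1 library, and the counts of members called were the same without them. The labels were checked against marker genes in the untreated libraries. Markers stood highest in the cell type they mark for both stromal types, leukocytes, endothelial cells and sphincter 1, as did Adra1a and Nos1 in dilator muscle. Myh11 ranked 3 in dilator muscle. No sphincter 2 marker was highest in sphincter 2, where Myh11, Adra1a and Syt1 ranked 2 and Chrm3 ranked 3. In iris PE, Zic1 was highest, but Pax6 ranked 2 and Otx1 ranked 3. For the CB label, the marker Slc4a4 was highest there at 6338 CPM, but Col9a1 and Rorb had 2 and 7 UMIs, so that this label rests on 1 marker of 3. In CBE, Pax6 ranked 6 of the 10 types.

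Phospholipase C enzymes cleave the membrane lipid phosphatidylinositol 4,5-bisphosphate (PIP2) into inositol trisphosphate (IP3), which opens calcium channels of the endoplasmic reticulum, and diacylglycerol, which binds protein kinase C. In smooth muscle this is the route from alpha-1 adrenergic and M3 muscarinic receptors, through G proteins of the q class, to contraction. The beta enzymes are the direct targets of these G proteins. PLC-beta2 and PLC-beta4 have also been linked to the light response that is intrinsic to the mouse iris sphincter.

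The beta genes lie at separate loci, but Plcb1 and Plcb4 are neighbors. In the GENCODE annotation of mm10, Plcb1 spans chromosome 2 from 134786067 to 135475258 and Plcb4 from 135659011 to 136014593, both on the plus strand, with 184 kb between them. Plcb2 (118707517 to 118728438, minus) and Plcg1 (160731300 to 160775760, plus) are on the same chromosome. Plcb3 (6952325 to 6976470, minus) and Plce1 (38481109 to 38785030, plus) are on chromosome 19, Plcl1 (55405921 to 55754285, plus) on chromosome 1, Plch1 (63696234 to 63899472, minus) on chromosome 3, Plcd1 (119071527 to 119093502, minus) on chromosome 9 and Plcd3 (103070304 to 103101658, minus) on chromosome 11. Spans ran from 20.9 kb for Plcb2 to 689 kb for Plcb1. Since the authors counted exons and introns, levels of different genes were compared per 100 kb of span.

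The upstream sequences of Plcb4, the most abundant member, and of Plcb1 and Plcl1, the members that changed with dilation, are shown because Plcb4 has a pair of listed starts that differ in base composition. Each sequence runs from 250 bases before to 50 bases after a RefSeq start on GRCm38.p6, 5′ to 3′, with CpG sites in capitals.
Plcb4, first start, chr2:135659297-135659596, plus strand: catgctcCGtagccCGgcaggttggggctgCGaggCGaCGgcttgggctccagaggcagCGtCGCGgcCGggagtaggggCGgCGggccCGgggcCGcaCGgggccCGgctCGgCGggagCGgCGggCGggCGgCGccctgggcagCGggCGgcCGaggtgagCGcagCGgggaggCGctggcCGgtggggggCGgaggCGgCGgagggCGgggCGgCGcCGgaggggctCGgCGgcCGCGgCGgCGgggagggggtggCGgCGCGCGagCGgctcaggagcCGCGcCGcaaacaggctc
Plcb4, second start, chr2:135764588-135764887, plus strand: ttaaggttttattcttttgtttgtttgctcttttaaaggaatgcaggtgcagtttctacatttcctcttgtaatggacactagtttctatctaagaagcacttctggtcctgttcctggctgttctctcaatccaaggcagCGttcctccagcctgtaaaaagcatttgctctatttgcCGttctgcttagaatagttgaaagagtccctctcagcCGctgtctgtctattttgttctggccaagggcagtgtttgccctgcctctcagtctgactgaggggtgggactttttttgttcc
Plcb1, chr2:134785914-134786213, plus strand: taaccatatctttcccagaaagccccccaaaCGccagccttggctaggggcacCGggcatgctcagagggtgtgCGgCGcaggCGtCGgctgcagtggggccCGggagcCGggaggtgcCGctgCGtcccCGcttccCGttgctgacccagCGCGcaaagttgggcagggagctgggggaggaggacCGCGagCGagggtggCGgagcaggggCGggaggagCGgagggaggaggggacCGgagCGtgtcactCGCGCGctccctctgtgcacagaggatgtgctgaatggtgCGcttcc
Plcl1, chr1:55405696-55405995, plus strand: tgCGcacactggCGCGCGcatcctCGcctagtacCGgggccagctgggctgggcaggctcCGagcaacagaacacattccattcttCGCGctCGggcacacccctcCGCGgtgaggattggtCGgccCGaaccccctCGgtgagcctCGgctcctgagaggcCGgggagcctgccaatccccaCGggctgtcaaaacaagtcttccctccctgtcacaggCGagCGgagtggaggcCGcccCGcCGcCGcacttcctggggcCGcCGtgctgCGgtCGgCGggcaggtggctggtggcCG
The first Plcb4 window held 50 CpG sites at 84.0% GC and the second 3 at 44.3%, against medians of 7 sites and 52.7% over all 32851 windows of this length. The Plcb1 window held 26 CpG sites and the Plcl1 window 30. All 10 members had an entry, with 13 windows between them. Both strands were searched for the CArG box, the AP-1 site (TGANTCA), the E box (CACGTG) and the cAMP response element (TGACGTCA), which are found in 1.63%, 7.81%, 7.15% and 1.79% of all windows. The only match in the 13 member windows was an AP-1 site in that of Plcb3, 153 bases before the start. UMIs summed over a gene do not tell which start was used.

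Plcb4 was the main phospholipase C transcript of iris muscle. In the 3 untreated libraries its level was 3848, 4549 and 4809 CPM in sphincter 2. Dilator muscle followed with 2946, 3560 and 3602 CPM, and then sphincter 1 with 2704, 2889 and 2866 CPM. The libraries of these 3 muscle types did not overlap, and each stood above every library of the other 7 types. The same order of the 3 muscle types held in each library. Endothelial cells (739 ± 76.1 CPM, n = 3) and stroma 1 (681 ± 62.8) overlapped and came next, and the other 5 types lay between 272 CPM in leukocytes and 431 CPM in CBE. The leukocyte mean had an SD of 307 CPM, and untreated replicate 2 held 165 of its 187 UMIs. No test is given for differences between cell types, because the types were defined from the same counts.

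Per 100 kb of gene span, Plcb4 led in all 3 muscle types and in stroma 1. In dilator muscle it stood at 948 CPM per 100 kb, against 216 for Plcg1 and 201 for Plch1. In sphincter 1 its 793 CPM per 100 kb compared with 158 for Plcd3, and in sphincter 2 its 1238 compared with 225 for Plcd3. In the other types no member stood so far above the rest: in stroma 1 Plcb4 (191 CPM per 100 kb) and Plcg1 (174) were within a factor of 1.10, Plcg1 led in CB, CBE, iris PE and endothelial cells, and Plcd3 led in stroma 2 with 279 CPM per 100 kb. Divided by exon length instead, Plcb4 led in 9 of the 10 types, so the order within the non-muscle types depends on the length used, whereas Plcb4 led in muscle on both scales.

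Plcb4 made up 71.3% of the UMIs of the 10 members in dilator muscle, 82.0% in sphincter 1 and 83.1% in sphincter 2, and 29.4% to 54.5% elsewhere. These are shares of captured UMIs and favor long genes. The summed level of the 10 members was 4714 ± 336 CPM in dilator muscle, 3440 ± 88.3 in sphincter 1 and 5288 ± 487 in sphincter 2. It was 624 to 2075 CPM in the other types.

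**Figure D1:**
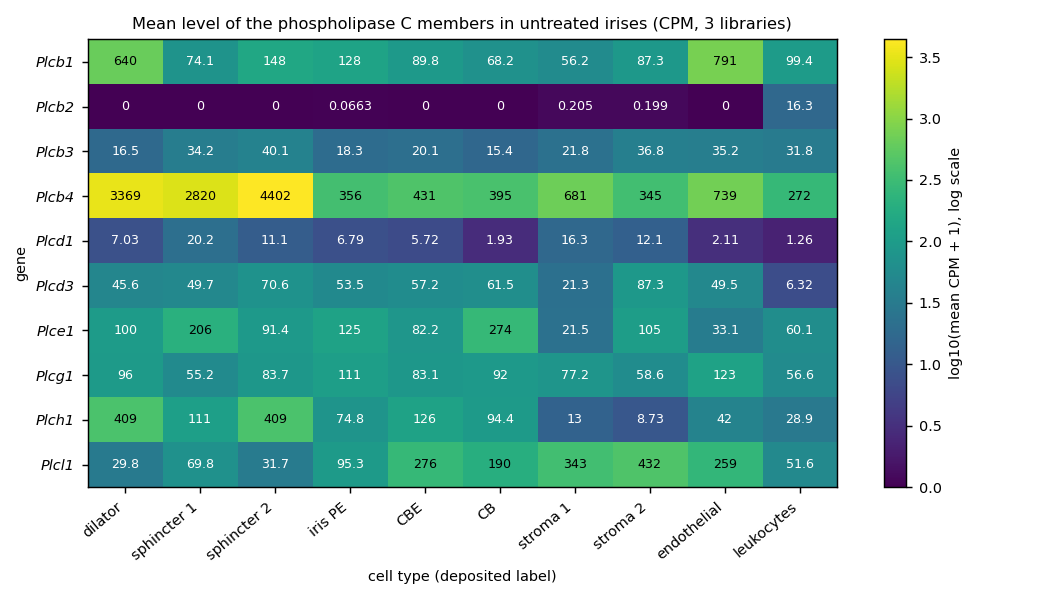
Mean CPM of each member (rows) in each cell type (columns) over the 3 untreated libraries, with color on a log10(CPM + 1) scale and the mean printed in each cell. Plcb4 is at 2820 CPM or more in the 3 muscle types, Plcb1 is highest in endothelial cells and dilator muscle, and Plcl1 is highest in stroma 2.

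At the level of nuclei, a Plcb4 UMI was found in 97.9% of 4357 untreated dilator nuclei (exact binomial interval 97.4 to 98.3%), in 99.3% of 544 sphincter 1 nuclei and in all 352 sphincter 2 nuclei. The interval covers counting error only. Shares were also high outside muscle, at 61.9% of iris PE and 51.6% of stroma 2 nuclei, and 19.7% in leukocytes. Nuclei with at least 1000 UMIs were also thinned to that depth, and those with fewer were left out. The expected shares were then 91.1% in dilator muscle, 91.3% in sphincter 1, 98.1% in sphincter 2 and 46.5% in stroma 1. They were 29.6% in iris PE, 27.5% in stroma 2 and 11.9% in leukocytes. Left out were 119 of 3040 stroma 2 and 15 of 193 leukocyte nuclei, against 26 of 4357 dilator nuclei.

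Plcb4 outside muscle was set beside muscle genes, since free RNA can add UMIs to other droplets. Outside muscle, the Plcb4 level was 8.06% to 21.9% of that in dilator muscle. The lowest value was that of leukocytes, where untreated replicate 2 held most of the Plcb4 UMIs. Nos1, neuronal nitric oxide synthase and a dilator marker, was at 1.37% to 8.80% of its dilator level in the same 7 types, and Myh11, smooth muscle myosin heavy chain, at 2.51% to 11.0%. Adra1a, the alpha-1A adrenergic receptor, was at 1.99% to 12.5%, and Mylk, myosin light chain kinase, at 2.23% to 34.4%. In stroma 1, Plcb4 was at 20.2% of its dilator level against 1.37% for Nos1, 1.99% for Adra1a, 2.23% for Mylk and 2.51% for Myh11. In CB, Plcb4 was at 11.7% and Adra1a at 12.5%, whereas Nos1 was at 1.76% and Myh11 at 2.59%. The part of free RNA in the Plcb4 UMIs outside muscle was not tested.

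Plcb1, whose product is another target of G proteins of the q class, had a different distribution. It was highest in endothelial cells (791 ± 40.4 CPM) and dilator muscle (640 ± 23.6), whose libraries did not overlap, and far lower in sphincter 2 (148 ± 20.4) and sphincter 1 (74.1 ± 23.9). Dilator libraries held 626 to 668 CPM and iris PE libraries 119 to 141 CPM. Among muscle types, Plcb1 thus set dilator apart from both sphincter types, which Plcb4 did not. The endothelial level rests on 307 UMIs in 149 nuclei. Over the 8 libraries of all conditions the log2 ratio of endothelial cells to dilator muscle was 0.59, against 0.31 in untreated libraries.

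Plcb3 and Plcb2 complete the beta class. Plcb3 was low everywhere, at 15.4 to 40.1 CPM, and the libraries of every neighboring pair of cell types in its order overlapped. Plcb2, known from blood cells, had 11 UMIs in untreated leukocytes, 16.3 CPM on average, in 11 of 193 nuclei. It had 1 UMI in iris PE, 1 in stroma 1 and 2 in stroma 2. In untreated muscle it had none, and 0 of 4357 dilator nuclei allows a share of nuclei with a UMI of up to 0.0689%, which does not limit the share of nuclei that express the gene. Plcb2 passed the filter for testing in no cell type.

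Plch1, an enzyme of the calcium-sensitive eta class, was the member besides Plcb4 that marked muscle. Its untreated levels were 374, 423 and 432 CPM in dilator muscle and 385, 356 and 488 CPM in sphincter 2, which overlapped. Sphincter 1 held only 86.0, 144 and 104 CPM, below all libraries of the other 2 muscle types and overlapping with CBE (126 ± 8.06). Stroma 2 was lowest, at 8.73 ± 1.47 CPM. A Plch1 UMI was found in 68.2% of dilator and 69.6% of sphincter 2 nuclei, against 25.7% in sphincter 1, 3.33% in stroma 1 and 2.17% in stroma 2. Thinned to 1000 UMIs, these shares were 33.1%, 33.5%, 9.84%, 1.19% and 0.958%.

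Plcl1 ran the opposite way. Its product binds IP3 and phosphatases but is known as a phospholipase C-related protein without catalytic activity. It was highest in stroma 2 (432 ± 34.0 CPM) and stroma 1 (343 ± 67.4), which overlapped, then in CBE (276 ± 47.8), endothelial cells (259 ± 131) and CB (190 ± 10.6). Iris PE held 95.3 ± 5.35 CPM, and the lowest values were 31.7 ± 13.7 in sphincter 2 and 29.8 ± 2.80 in dilator muscle. In stroma 2, Plcl1 made up 36.8% of the members' UMIs, more than Plcb4 with 29.4%.

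The other members were less abundant. Plce1, an enzyme with Ras-binding domains, was highest in CB (168 to 352 CPM) and sphincter 1 (179 to 220 CPM), and sphincter 1 stood above all libraries of iris PE, the next type, with 114 to 146 CPM. Within muscle, Plce1 was thus higher in sphincter 1 than in dilator (84.8 to 130 CPM) and sphincter 2 (74.9 to 119 CPM) in every library. Plcg1, which receptor tyrosine kinases activate, ranged only from 55.2 CPM in sphincter 1 to 123 CPM in endothelial cells. Plcd3, of the calcium-driven delta class, was highest in stroma 2 (87.3 ± 14.9 CPM) and held 45.6 to 70.6 CPM in muscle. Plcd1 was at most 20.2 CPM, in sphincter 1, where replicate 1 gave 37.6 CPM and the other two 11.2 and 11.7 CPM.

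**Figure D2:**
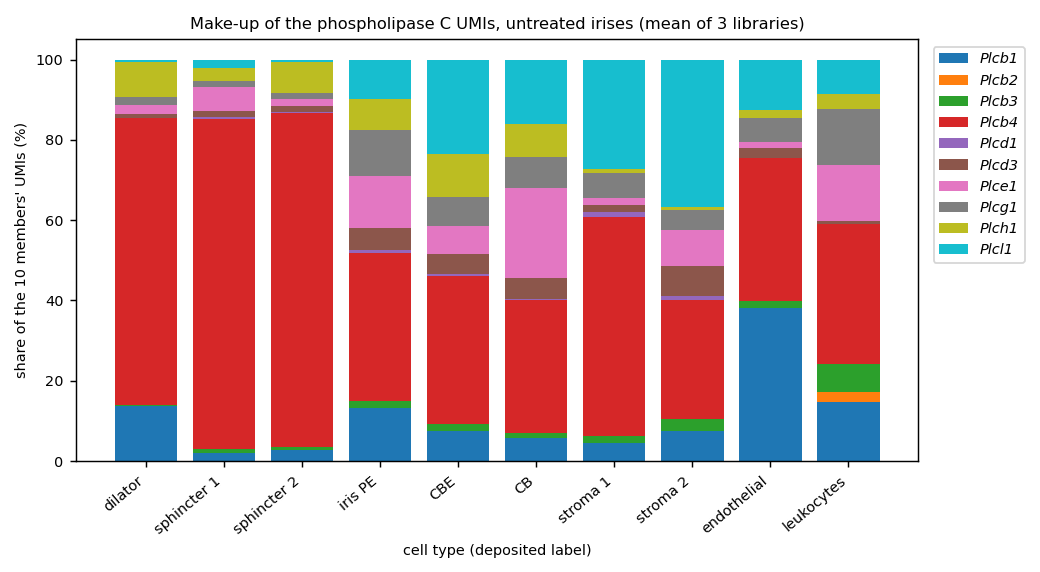
Share of the UMIs of the 10 members (percent, vertical axis) by cell type in untreated irises, as stacked bars of the mean over 3 libraries, not corrected for gene length. Plcb4 takes 71.3% to 83.1% in the muscle types, and Plcl1 takes 36.8% in stroma 2.

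The genes whose pattern over the 10 untreated cell type means of log2(CPM + 1) was most like each member are given as a description, with Pearson's r among 11655 genes with at least 20 CPM in a cell type. The means share libraries and depth. For Plcb4 these were Sccpdh (r = 0.964), Dpp6 (0.959) and Jph2 (0.957), and for Plch1 they were Ccdc60 (0.984), Gm14507 (0.968) and Fastkd1 (0.962). For Plcb1 they were 4930545L23Rik (0.959), Crispld1 (0.912) and Nars2 (0.880), and for Plcl1 they were Agrn (0.948), Gimap9 (0.935) and Fgf1 (0.881). For Plcg1 they were Utrn (0.941), Tbc1d2 (0.941) and Cobll1 (0.933), and for Plce1 they were Utp20 (0.915), Fam110b (0.908) and Prdm15 (0.907). For Plcd3 they were Fzd3 (0.961), Tmem248 (0.961) and Parva (0.954), for Plcd1 D230017M19Rik (0.963), Ndufaf7 (0.947) and Abtb2 (0.943), and for Plcb3 Taf8 (0.941), Nvl (0.906) and Myh9 (0.905). Among the members themselves, Plcb4 and Plch1 were most alike (r = 0.698).

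Some members overlap genes on the other strand. The sources used here do not give the strand setting of the counting, and whether reads of the overlapping parts were kept apart was not tested. The antisense gene 4930545L23Rik, the closest match to Plcb1, lies within its span, as does 9630028H03Rik. The latter held 494 CPM in dilator muscle and 90.7 CPM in endothelial cells, where Plcb1 was highest. Gm14211, a noncoding RNA opposite Plcb4, held 495 CPM in dilator muscle, and its r with Plcb4 was 0.925. Zhx3 overlaps Plcg1 and had more UMIs in the series (20702) than Plcg1 (10186), and Gm26668 had 5764 UMIs against 5710 for Plcd3, which it overlaps.

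The comparison of dilated with untreated irises asks which transcripts respond to the drops and the dark. Of the members, 2 passed the threshold, a log2 fold change beyond 0.6 in either direction with an adjusted p below 0.05 (edgeR quasi-likelihood test, Benjamini-Hochberg over the genes of the cell type): Plcb1 rose in iris PE and Plcl1 rose in dilator muscle. These were 2 of 73 tests, over 9 members and 10 cell types, and 3.34% of all gene tests were called. The same 2 were called by DESeq2, 14 of the 73 tests had an unadjusted p under 0.05, and 13.1% of all gene tests did. The median log2 fold change of the 73 was 0.02. Plcb4, the leading member of muscle, did not pass in any type.

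Plcb1 in iris PE was at 119, 124 and 141 CPM in the untreated libraries and at 250 and 200 CPM in the dilated libraries. Both dilated libraries lay above all untreated ones, as 26.4% of all genes tested in iris PE did not overlap. The log2 fold change was 0.84 ± 0.16 (SE), with an adjusted p of 0.0357 by edgeR, and 0.595% of genes were called in this cell type. Leaving out 1 library ended the call without any untreated or either dilated library, where the adjusted p by edgeR was 0.0700 to 0.314. Within library number series, where the titles number the libraries 2 to 4 or 15 to 18, the ratio of dilated to untreated was 2.11 and 1.505. That of constricted to untreated was 1.70 and 1.525, so the higher level was not particular to dilation. Of the markers of dilator muscle, where Plcb1 is high, in iris PE Myh11, Adra1a and Nos1 summed to 97.4 to 102 CPM in untreated and 57.9 to 83.9 CPM in dilated libraries. The same sum was also lower in dilated dilator muscle itself, at 1583 to 1623 against 2406 to 2832 CPM, so it does not measure the share of dilator RNA in iris PE, whose part in the Plcb1 result was not tested. The endothelial markers Pecam1, Cdh5 and Erg summed to 9.95 to 19.2 CPM in untreated and 9.93 to 13.7 CPM in dilated libraries. The antisense 4930545L23Rik had a log2 fold change of 1.29 ± 0.33 in iris PE, with an adjusted p of 0.120 by edgeR.

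In dilator muscle the Plcb1 level was 626 to 668 CPM in untreated and 546 to 586 CPM in dilated libraries, and its log2 fold change was 0.01 ± 0.16 (adjusted p = 0.97 by edgeR). The effect in iris PE exceeded that in dilator muscle by 0.85 ± 0.12 on the log2 scale in a joint edgeR fit of both types (adjusted p = 0.000185). In that joint fit 11.7% of genes were called.

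Plcl1 in dilator muscle was at 31.8, 26.6 and 31.0 CPM in the untreated libraries and at 48.0 and 42.9 CPM in the dilated libraries. The groups did not overlap, which was so for 48.4% of all genes in dilator muscle. The log2 fold change was 0.80 ± 0.22, with an adjusted p of 0.0263 by edgeR. In this cell type 13.3% of genes were called, so that 1 called member of 9 is near the background. Without any untreated or either dilated library the call was lost, with adjusted p by edgeR of 0.0513 to 0.116, and with library sizes only as scaling the log2 fold change was 0.62 (adjusted p = 0.0833 by edgeR). Within library number series the ratio of dilated to untreated was 1.51 and 1.49, and that of constricted to untreated 1.32 and 0.82. Plcl1 was at 42.0 CPM in constricted replicate 1 and 23.7 CPM in constricted replicate 3, so constricted libraries lay above and below the untreated ones. Constricted replicate 2, outside both series, had 97 Plcl1 UMIs among 2249256 of tested genes. Dilated replicate 2 had 214 among 4979677, which is nearly the same share. On these unscaled shares the higher Plcl1 level was thus not particular to dilated libraries. The call came from the TMM-scaled fit, where dilated replicate 2 had a lower scaling factor than constricted replicate 2. On that scale Plcl1 thus stood higher in dilated replicate 2 than in constricted replicate 2. Whether the rise in the scaled fit was particular to dilation was not tested. In the dilated libraries Plcl1 in dilator muscle remained under the 220 to 492 CPM of the stromal types.

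Stromal marker levels in dilator nuclei are given beside this result, since Plcl1 was highest in the stromal types. It was also at 276 CPM in CBE, 259 in endothelial cells and 190 in CB. The CB and CBE labels held 635 and 675 nuclei in dilated irises, beside 3873 dilator nuclei. In untreated irises they held 346 and 373, beside 4357 dilator nuclei. The part of these types in the Plcl1 result was not tested. In dilator muscle the stroma 2 marker Tfap2b was at 8.73 to 18.7 CPM in untreated and 9.82 to 13.03 CPM in dilated libraries, and Pdgfra was at 3.12 to 7.12 and 4.01 to 4.84 CPM, so that the groups overlapped for both. Of the stroma 1 markers, Sox10 was at 3.52 to 4.36 CPM in untreated and 1.58 to 1.80 CPM in dilated libraries, and Mitf was lower too, at 1002 to 1086 against 651 to 780 CPM. Dct was higher, at 5031 to 5591 against 7463 to 7952 CPM, and so was the sum of the 3, at 6062 to 6597 against 8244 to 8606 CPM. In untreated stroma 1 itself, Sox10 was at 963, Mitf at 2178 and Dct at 20924 CPM. The sum is mostly Dct and the 3 moved in different directions, so it does not measure the share of stroma 1 RNA in dilator nuclei. The part of stromal RNA in the Plcl1 result was not tested.

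Plcb4 in dilator muscle was at 2946, 3560 and 3602 CPM in untreated, 3044, 3575 and 3170 CPM in constricted, and 2228 and 2233 CPM in dilated libraries. The dilated libraries lay below all the others. Dilated and untreated libraries did not overlap for 48.4% of all genes tested in dilator muscle. The log2 fold change was -0.41 ± 0.17 with an adjusted p of 0.133 by edgeR, so that Plcb4 did not pass the threshold. The scaling matters here: with library sizes only, the median log2 fold change of all genes in dilator muscle was -0.16 in place of 0.02, and that of Plcb4 was -0.60 (adjusted p = 0.0205 by edgeR, under the fold minimum). Marker genes of dilator muscle moved with Plcb4: in dilator nuclei Myh11 was at 1681 to 2090 CPM in untreated and 1140 to 1246 CPM in dilated libraries, Nos1 at 218 to 268 and 94.98 to 139 CPM, and the sum of the 3 markers at 2406 to 2832 and 1583 to 1623 CPM. Their part in the Plcb4 and Plch1 values was not tested. The summed level of the 10 members in dilator muscle was 4327 to 4934 CPM in untreated and 3253 to 3357 CPM in dilated libraries. These sums are not TMM-scaled. On average Plcb4 made up 71.3% of the members' UMIs in untreated and 67.5% in dilated libraries, so the sums mostly repeat the Plcb4 values.

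Plch1 in dilator muscle was at 374, 423 and 432 CPM in untreated and at 279 and 212 CPM in dilated libraries, which did not overlap. Its log2 fold change was -0.56 ± 0.17, with an adjusted p of 0.0413 by edgeR, which passed the limit on p but not that on the fold. With library sizes only it was -0.74 (adjusted p = 0.0128 by edgeR) and was called, as it was without untreated replicate 1 (-0.65, adjusted p = 0.0276 by edgeR). The same direction was seen in sphincter 2, where 30% of genes did not overlap (log2 fold change -0.67 ± 0.23, adjusted p = 0.129) and iris PE (-0.65 ± 0.23, adjusted p = 0.351), by edgeR, where it did not pass. Plcd3 in dilator muscle was at 43.0 to 47.1 CPM in untreated and 29.8 and 33.5 CPM in dilated libraries, with a log2 fold change of -0.36 ± 0.18 (adjusted p = 0.227 by edgeR). On the unscaled CPM values 6 of the 9 tested members were lower in both dilated libraries than in every untreated one in dilator muscle, and 1 was higher, where 48.4% of all genes did not overlap. In the TMM-scaled fit 5 of the 9 had a log2 fold change above 0 and 4 below.

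**Figure D3:**
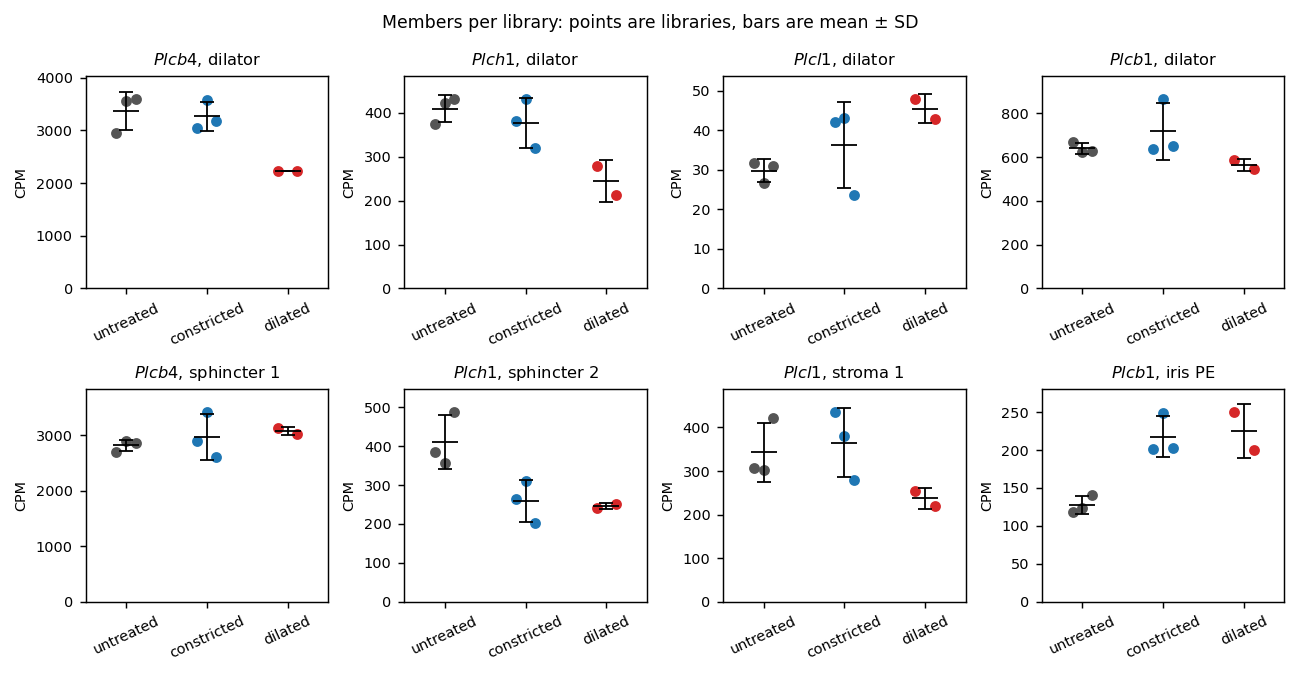
CPM per library (vertical axis, from 0) for 4 members in dilator muscle (top) and in another cell type (bottom), with points for libraries and bars for mean ± SD in untreated (gray), constricted (blue) and dilated (red) irises. In dilator muscle the dilated libraries lie below the untreated ones for Plcb4 and Plch1 and above them for Plcl1, and Plcb1 in iris PE lies above the untreated libraries in both treated groups.

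The effect of dilation on Plcl1 differed between cell types. Compared with dilator muscle, the log2 fold change was lower by 1.85 ± 0.34 in sphincter 1, by 1.38 ± 0.18 in stroma 1, by 0.83 ± 0.15 in iris PE, by 0.78 ± 0.20 in CBE and by 0.68 ± 0.18 in stroma 2, each with an adjusted p under 0.05 by edgeR. Those in sphincter 1 and stroma 1 passed under every alternative run, as did that of Plcb1 in iris PE. With no library term, those in iris PE (adjusted p = 0.0504 by edgeR), CBE and stroma 2 were lost. That in CBE was also lost without untreated replicate 2 (adjusted p = 0.353 by edgeR) or dilated replicate 1. That in stroma 2 was also lost without untreated replicate 2 (adjusted p = 0.273 by edgeR) or 3 (0.129). In sphincter 1, Plcl1 was at 58.7 to 80.6 CPM in untreated libraries and at 16.4 and 43.8 CPM in dilated ones (log2 fold change -1.06 ± 0.36, adjusted p = 0.186 by edgeR). In stroma 1 it was at 302 to 421 and at 255 and 220 CPM (-0.53, adjusted p = 0.225 by edgeR). The groups did not overlap in either type, as in 28.8% of genes in sphincter 1 and 31.7% in stroma 1. No difference of Plcl1 from dilator muscle was called in sphincter 2, CB, leukocytes or endothelial cells. There the log2 fold change with dilation was 0.79 ± 0.42, 0.61 ± 0.28, 1.00 ± 0.48 and 0.21 ± 0.42, in that order. None of these passed (adjusted p = 0.420, 0.925, 0.448 and 0.989 by edgeR).

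The Plcb4 effect was also more negative in dilator muscle than in sphincter 1, where the difference was 0.59 ± 0.15, and than in stroma 2, where it was 0.61 ± 0.17. Plcb4 in sphincter 1 was at 2704 to 2889 CPM in untreated and 3128 and 3030 CPM in dilated libraries. These did not overlap, as for 28.8% of genes in sphincter 1. The log2 fold change of Plcb4 there was 0.16 ± 0.19 (adjusted p = 0.878 by edgeR). In stroma 1, as in dilator muscle, Plcb4 was lower, at 639 to 753 CPM in untreated and 516 and 530 CPM in dilated libraries. Its log2 fold change in stroma 1 was -0.37 ± 0.16 (adjusted p = 0.299 by edgeR), where 31.7% of genes did not overlap. The Plch1 effect was higher in CBE than in dilator muscle by 0.71 ± 0.21, and the Plcg1 effect was higher in iris PE by 0.46 ± 0.13. These 4 differences from dilator muscle were all lost with no library term. They were also lost without untreated replicate 2, with adjusted p by edgeR of 0.0666 for Plcb4 in sphincter 1, 0.233 for Plcb4 in stroma 2, 0.138 for both Plch1 and Plcg1. Without untreated replicate 3, those of Plcb4 in stroma 2 (0.229), Plch1 (0.0861) and Plcg1 (0.173) were lost. The Plch1 difference was also lost without either dilated library (0.127 and 0.108), that of Plcg1 without dilated replicate 2 (0.115) and that of Plcb4 in stroma 2 without untreated replicate 1 (0.0564). In all, 10 of 80 member tests over 9 joint fits passed, and 5.37% of all gene tests did.

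Plcg1 did not pass in any type. In dilator muscle it was at 87.5 to 108 CPM in untreated and 87.4 and 82.4 CPM in dilated libraries, with a log2 fold change of 0.02 in the scaled fit. It was at 53.8 to 56.0 CPM in untreated sphincter 1 and at 76.4 and 118 CPM in the dilated libraries (log2 fold change 0.85 ± 0.28, adjusted p = 0.148 by edgeR). The constricted libraries of sphincter 1 were also above the untreated ones, at 72.4 to 96.8 CPM for Plcg1. In sphincter 1, 11.4% of genes did not overlap between constricted and untreated libraries. In endothelial cells it was at 114 to 136 CPM in untreated and 262 and 412 CPM in dilated libraries (1.35 ± 0.40, adjusted p = 0.361 by edgeR). The dilated libraries did not overlap the untreated ones in endothelial cells, where 24.7% of genes did not. No gene of 1352 tested in endothelial cells passed by edgeR, and 90 had an unadjusted p under 0.05; DESeq2 called none. Zhx3, which overlaps Plcg1, had a log2 fold change of 0.85 in iris PE (adjusted p = 0.109 by edgeR), where that of Plcg1 was 0.46.

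The comparison of constricted with untreated irises asks the same of pilocarpine and light. No member passed in 73 edgeR tests, where 0.0118% of all gene tests were called. At an unadjusted p under 0.05 there were 12 of 73, and 5.25% of all gene tests. DESeq2 called 1 member, Plcb1 in iris PE. Plcb1 was there at 201, 249 and 202 CPM in constricted libraries, all above the 119 to 141 CPM of the untreated ones. Its log2 fold change was 0.76 ± 0.15, with an adjusted p of 0.496 by edgeR and 0.0245 by DESeq2. Dilated and constricted libraries were compared with the same untreated libraries, so that the differences of Plcb1 in the 2 comparisons are not independent. In iris PE 9.89% of genes did not overlap between constricted and untreated libraries.

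Several members differed with constriction in the ciliary body types without passing. Plcl1 in CB was at 182 to 202 CPM in untreated and 337, 317 and 721 CPM in constricted libraries, which did not overlap, as for 10.2% of genes in CB (log2 fold change 1.20, adjusted p = 0.220 by edgeR). Plch1 in CBE was at 117 to 133 CPM in untreated and 255, 329 and 159 CPM in constricted libraries (1.05, adjusted p = 0.122 by edgeR). Constricted and untreated libraries did not overlap for 3 of 7 tested members in CBE, all higher, against 11.8% of all genes. In sphincter muscle, the target of pilocarpine, Plcb4 was at 2900, 3420 and 2601 CPM in constricted sphincter 1 and 2704 to 2889 CPM in untreated, which overlapped. Plch1 was lower there, at 56.0 to 60.5 CPM in sphincter 1 and 203 to 310 CPM in sphincter 2, below all untreated libraries of each type, as 11.4% and 11.2% of genes did not overlap there, but did not pass (adjusted p = 0.370 and 0.353 by edgeR).

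**Figure D4:**
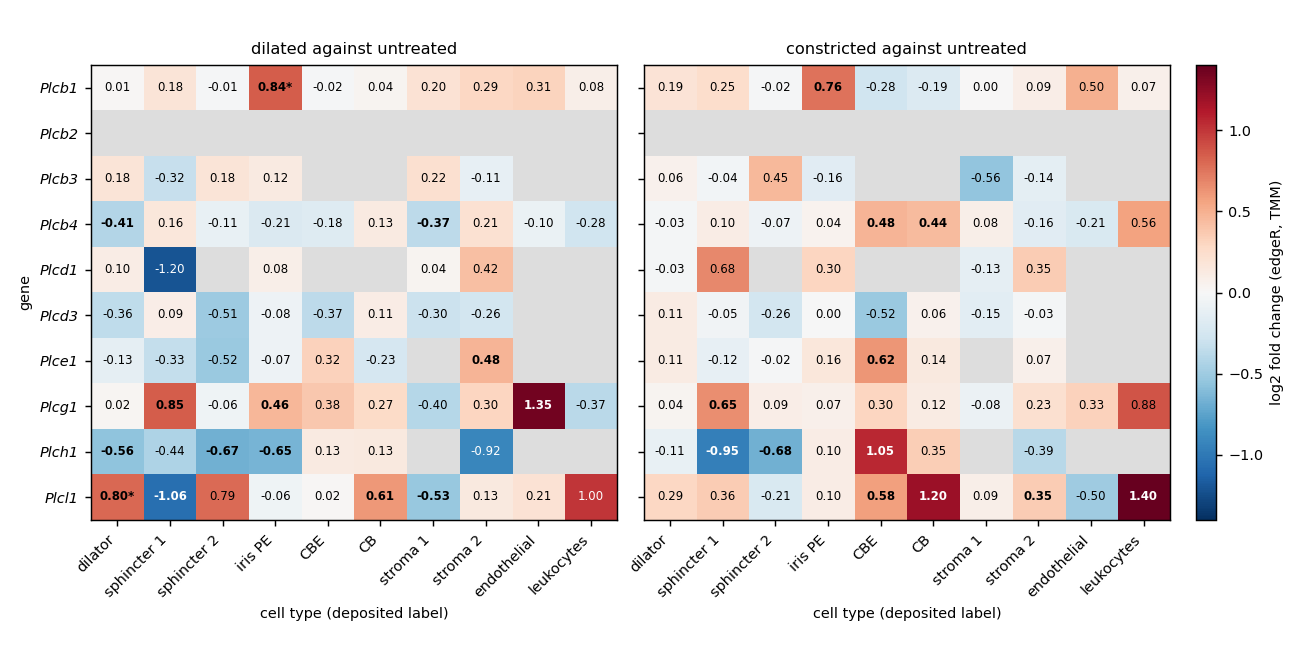
Log2 fold change of each member (rows) in each cell type (columns) for dilated (left) and constricted (right) against untreated, by edgeR with TMM scaling. Gray cells were not tested, bold values had an unadjusted p under 0.05 and asterisks mark the 2 tests that passed, Plcb1 in iris PE and Plcl1 in dilator muscle.

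Other genes of the pathway, a list of 60, give the context for the members. The list was chosen with earlier results of these data known. Its shares of calls, here and in sphincter 1, are therefore descriptions and not tests of the pathway. In dilator muscle with dilation, 11 of 52 tested rose, 2 fell and 39 did not pass, 25.0% called, where 13.3% of all genes were. The median log2 fold change was 0.09. None of 3 tested G protein alpha subunits of the q class and none of 3 IP3 receptors passed. Among enzymes that make PIP2, Pi4kb and Pip5k1a were called of 5, and 3 of 8 tested genes of phosphatidylinositol transfer and resynthesis rose. The largest rise was that of Pitpnm2, a phosphatidylinositol transfer protein, with a log2 fold change of 1.87 ± 0.21, from 8.70 to 13.7 CPM in untreated to 29.1 and 38.6 CPM in dilated libraries. Plcxd3, a protein with a phospholipase C-like X domain, followed with 1.19 ± 0.23, Pitpnm1 with 1.14 ± 0.32, Cds2, a CDP-diacylglycerol synthase, with 1.13 ± 0.15 and Prkca, protein kinase C alpha, with 1.05 ± 0.13. Prkch, protein kinase C eta, fell by 1.48 and Dgki, diacylglycerol kinase iota, by 0.83, both on the log2 scale. Members of the same families moved the other way: Dgkh, diacylglycerol kinase eta, rose by 0.93 and Prkcb, protein kinase C beta, by 0.80. Inositol phosphate removal was represented by Itpkb and Inpp5a, which rose among 6 tested. Dgkh, Prkcb, Inpp5a, Pip5k1a, Itpkb and Pi4kb were named after their values were seen.

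In sphincter 1, 4 of 32 tested pathway genes fell and none rose, where 1.95% of all genes were called. These were Dgkg (log2 fold change -2.59), Dgkb (-1.78), Pitpnc1 (-1.53) and Inpp5a (-1.06), the first 2 of them diacylglycerol kinases, and they were named after their values were seen. Inpp5a rose in dilator muscle and in stroma 2 (1.23). With constriction no pathway gene passed in any cell type by edgeR, and 0 to 5 per cell type had an unadjusted p under 0.05, whereas DESeq2 called 1, the diacylglycerol kinase gene Dgkb in sphincter 1, named after its value was seen.

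**Figure D5:**
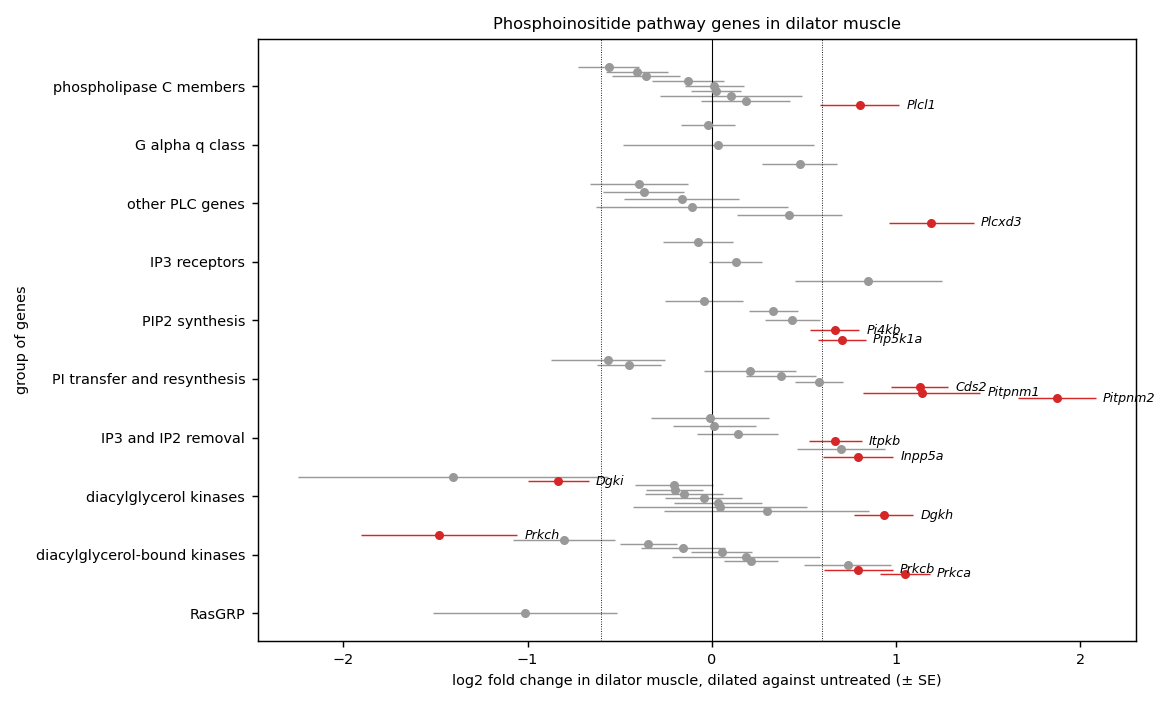
Log2 fold change ± SE in dilator muscle, dilated against untreated (horizontal axis), for the members (top row) and the pathway list by role, 1 point per tested gene. Red points passed the threshold, dotted lines mark the fold minimum of 0.6, and 11 list genes rose and 2 fell, whereas of the members Plcl1 passed.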

How the data were processed

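Nuclei of 8 libraries were sequenced with the 10x 3′ chemistry. The authors aligned reads to an mm10 pre-mRNA index with Cell Ranger 3.1.0, so that introns were counted, removed nuclei with more than 1% mitochondrial transcripts or with few or many genes, and clustered and labelled the nuclei with Seurat. The deposited values used here are raw UMI counts per gene and nucleus and the authors' cell type labels. The deposited percent of mitochondrial transcripts was at most 0.991 in any nucleus, and the strand setting of the counting is not given in the sources used here. The matrix sum differed from the deposited UMI total in 180 to 634 nuclei per library, and the matrix was used.

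The UMIs of each cell type in a library were added up and tested with edgeR 4.0.16 in R 4.3.3 (quasi-likelihood, TMM scaling, filterByExpr, 1 fit per cell type on all 8 libraries), called where the log2 fold change went beyond 0.6 in either direction with an adjusted p below 0.05. The difference between cell types was tested in joint fits with dilator muscle, with a term for each library. DESeq2 1.42.0, other scalings, no filter, blocks and left-out libraries were alternatives, and so was leaving out nuclei with shared barcodes, chosen after seeing the data. No doublet caller was run, and leaving out nuclei above the 95th percentile of UMIs stood in for it. The scripts were tested on simulated data. The members and the marker and pathway lists were chosen with earlier results of these data known. All members are described. Pathway genes are named where called in dilator muscle with dilation, at most the 5 largest in each direction, or in any type with constriction. Others are named after their values were seen, as said beside them. Likeness names the 3 genes of highest correlation with a member. The map of libraries to processing batches is not given in the sources used here. The libraries are pools, and the p-values set group differences against a spread estimated from these 8 libraries. Variation between single mice was not measured. A marker of the stroma 2 list is not reported here.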

Additional observations from a re-analysis of the deposited data

Results flagged for a closer look

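The dilation effects of 5 members differed between dilator muscle and another cell type by the test of the difference itself, in edgeR joint fits with Benjamini-Hochberg adjustment. Each value is the log2 fold change in the other cell type minus that in dilator muscle.

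For Plcl1, which rose in dilator muscle, the difference was -0.78 in CBE (adjusted p = 0.00761 by edgeR), -0.83 in iris PE (0.00152), -1.85 in sphincter 1 (0.000116), -1.38 in stroma 1 (2.54e-06) and -0.68 in stroma 2 (0.0305). For Plcb1, which rose in iris PE, it was 0.85 there (adjusted p = 0.000185 by edgeR), and for Plcg1 it was 0.46 in iris PE (0.0305). For Plcb4 it was 0.59 in sphincter 1 (adjusted p = 0.00671 by edgeR) and 0.61 in stroma 2 (0.0432). For Plch1 it was 0.71 in CBE (adjusted p = 0.0237 by edgeR). All 10 values share the same dilator muscle counts, so they are not independent of each other.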

How the results depend on the processing

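The count of members called with dilation, 2, was 1 without untreated replicate 1, which was Plch1 in dilator muscle. It was 0 without untreated replicate 2 or 3. The calls of the main fit, Plcb1 in iris PE and Plcl1 in dilator muscle, were thus lost without any of the untreated libraries. They were lost without either dilated library too. With 1 dilated library, that library is assumed to vary like the other groups. With library sizes only the count was also 2, Plcb1 in iris PE and Plch1 in dilator muscle. With constriction the count of 0 became 3 with no filter on low counts (Plcl1 in CB, Plch1 in CBE, Plcb1 in iris PE), 1 with DESeq2 and 1 with the library number series as a block. The pathway count of 22 became 34 with that block and was 13 to 24 when 1 library was left out, the lowest without dilated replicate 1 or untreated replicate 3. The 10 differences from dilator muscle became 3 with no library term and were 4 to 11 when 1 library was left out, with 4 without untreated replicate 2 and 6 without untreated replicate 3. Plcb4 led in 9 cell types per exon length and in 8 by plain CPM, against 4 per span, and its share of 97.9% of dilator nuclei was 91.1% after thinning. The log2 difference of Plcb4 in dilator muscle was -0.60 to -0.36 under other settings and -0.53 to -0.33 when 1 library was left out, with no call. With all 8 libraries, the log2 level ratio was 0.59 for Plcb1 in endothelial cells over dilator muscle, 0.67 for Plcg1 in endothelial cells over iris PE and 0.45 for Plcb4 in sphincter 2 over dilator muscle, which was 0.44 without the nuclei of most UMIs. The causes were not tested.

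With the replicate number as a block, 2 members were called with dilation, 0 with constriction, and 27 pathway genes. Same-numbered libraries correlated at -0.25 to 0.45 in their deviations from the group means, so the number was not taken as a pairing. Pairs of the same library number series correlated at 0.18 to 0.43 in dilator muscle and 0.17 to 0.45 in iris PE, and pairs across series at -0.43 to 0.09 and -0.45 to 0.04. The 2 dilated libraries deviate from their mean by equal and opposite amounts, so their correlations with any other library differ only in sign. The lowest values across series thus mirror the highest within series and add no separate information. With the series as a block, 3 members were called with dilation (Plcb1 in iris PE, Plcl1 in dilator muscle and Plcg1 in sphincter 1), and calls over all genes rose from 2054 to 3138 in dilator muscle and from 84 to 368 in iris PE. Of 838 alternative values of 58 single tests, 738 kept direction and side of the threshold, 91 lost the threshold, 9 gained it and 0 changed direction. Apart from Plcd3 in dilator muscle, these tests were chosen for an unadjusted p under 0.05 or a call in the main edgeR fit. That choice favors a stable direction. Tests not called in the main fit could not lose the threshold, so the 738 overstates how stable the calls were.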
